A study of Mus musculus with 8 samples.

Results

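The epidermal differentiation complex is a cluster of genes on mouse chromosome 3 that encode the proteins of the outermost, dead layer of the skin. The gene list held 46 of its members, and 35 of these were measured, of 18193 genes measured in all. A gene was measured where the platform annotation gave at least 1 probe set (a group of short probes against 1 transcript) with that gene symbol and no other. The 35 genes had 46 such probe sets between them, and each gene is represented by its brightest one, judged by the mean of the 8 arrays. By family they were 3 of 3 envelope precursor genes (Lor, Ivl and Crct1), 4 of 5 filaggrin-like genes (Flg, Hrnr, Rptn and Tchh), 15 of 17 late cornified envelope (Lce) genes, 7 of 12 small proline-rich (Sprr) genes and 6 of 7 S100 genes. The other 11 listed genes had no such probe set and were not analysed here: Flg2, Sprr2a1, Sprr2b, Sprr2e, Sprr2g, Sprr4, Lce1e, Lce1k, S100a11, Pglyrp3 and Pglyrp4.

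Dorsal skin came from 10-week-old female mice of the hairless strain Hos:HR-1. Control mice ate AIN93G, a purified rodent diet, and collagen mice ate that diet with fish-scale collagen hydrolysate at 2.0 g per 100 g, both for 1 week, and each diet had 4 arrays of 1 colour. The labels call the arrays of a diet biological replicates, but which of the 8 mice per diet, housed 4 to a cage, gave them was not known from the labels. Whole skin was powdered, so epidermis, hair follicles, dermis and muscle contributed RNA together, and fewer cells of a type and less RNA per cell cannot be told apart. The keratinocyte genes that define epidermis were present at high values on the deposited log2 scale, with means of 14.19 for Krt14 (basal layer) and 14.39 for Krt10 (spinous layer).

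In the upper epidermis, keratinocytes stop dividing, fill with keratin and replace their membrane with the cornified envelope, a shell of proteins that transglutaminases crosslink. Involucrin (Ivl) is laid down early, loricrin (Lor) becomes the main component, and the Lce and Sprr proteins are small, repetitive precursors that are crosslinked into the shell. Filaggrin (Flg) and hornerin (Hrnr) are made as long repeat proteins in keratohyalin granules, trichohyalin (Tchh) belongs to the inner root sheath and medulla of the hair follicle, and S100 proteins are small calcium-binding proteins.

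The stretches just before the transcription start of these genes are shown first, to give the sequence context of each family. Some motifs are shared between the families and others are not, as given below. No link between the letters and the values was tested. Sequences come from RefSeq, build GRCm38.p6, and run 5′ to 3′ on the gene's own strand, ending 1 base before the annotated start. A window was found for 31 of the 35 measured genes. Of these, Lor and Ivl represent the envelope precursors, Flg, Hrnr and Rptn the filaggrin-like genes and Sprr1a the Sprr genes. Capitals mark the motifs TGANTCA (the AP-1 type site) and TATAAA (the TATA box), with TATAAAA in capitals where an A follows.
Lor, chr3:92083143-92083292 (-): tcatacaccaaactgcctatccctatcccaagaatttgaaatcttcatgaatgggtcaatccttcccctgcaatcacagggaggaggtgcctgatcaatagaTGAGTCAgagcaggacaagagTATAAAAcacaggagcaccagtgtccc
Ivl, chr3:92573736-92573885 (-): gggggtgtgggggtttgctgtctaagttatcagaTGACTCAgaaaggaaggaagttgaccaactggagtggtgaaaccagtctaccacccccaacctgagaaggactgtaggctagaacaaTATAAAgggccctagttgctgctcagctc
Flg, chr3:93273396-93273545 (+): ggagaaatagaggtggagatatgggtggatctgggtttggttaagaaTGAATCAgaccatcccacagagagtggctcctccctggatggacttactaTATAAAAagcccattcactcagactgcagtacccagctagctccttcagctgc
Hrnr, chr3:93319599-93319748 (+): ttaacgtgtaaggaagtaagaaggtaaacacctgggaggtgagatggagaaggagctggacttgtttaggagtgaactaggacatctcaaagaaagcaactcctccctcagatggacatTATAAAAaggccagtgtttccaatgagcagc
Rptn, chr3:93393549-93393698 (+): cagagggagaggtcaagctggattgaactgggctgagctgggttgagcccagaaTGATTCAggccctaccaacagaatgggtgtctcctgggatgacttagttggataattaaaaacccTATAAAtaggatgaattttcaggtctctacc
Sprr1a, chr3:92485882-92486031 (-): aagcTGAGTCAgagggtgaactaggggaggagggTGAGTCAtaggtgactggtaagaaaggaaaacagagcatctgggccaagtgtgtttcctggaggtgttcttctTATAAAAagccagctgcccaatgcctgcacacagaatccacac

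In windows of 250 bases before the start, searched on both strands, TATAAA was present in 7 of 7 Sprr genes, in both Lor and Ivl, in 3 of 4 filaggrin-like genes, in 2 of 10 Lce1 genes and in 0 of 4 Lce3 genes. It was present in 12.4% of all 32851 promoter windows. TGANTCA was present in 6 of 7 Sprr genes, in both Lor and Ivl, in 2 of 4 filaggrin-like genes and in 0 of 14 Lce genes, against 6.75% of all windows. A match is a description of the letters and does not show that a factor binds.

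The Lce genes are shown next to compare what they hold at the same distance from the start. Capitals mark ATAAAA, or TATAAAA where a T precedes it. This motif was chosen after the sequences had been seen, and it overlaps TATAAA in the longer form.
Lce1a1, chr3:92648308-92648387 (-): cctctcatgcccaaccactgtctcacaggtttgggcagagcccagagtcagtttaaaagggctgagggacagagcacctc
Lce1a2, chr3:92670316-92670395 (-): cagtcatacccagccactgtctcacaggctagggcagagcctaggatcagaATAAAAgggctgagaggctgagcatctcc
Lce1b, chr3:92656927-92657006 (-): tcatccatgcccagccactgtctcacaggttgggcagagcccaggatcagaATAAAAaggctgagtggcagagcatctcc
Lce1d, chr3:92687211-92687290 (-): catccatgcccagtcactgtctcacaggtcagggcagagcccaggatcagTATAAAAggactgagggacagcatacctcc
Lce1h, chr3:92765066-92765145 (-): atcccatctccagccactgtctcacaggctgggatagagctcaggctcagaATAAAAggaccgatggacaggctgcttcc
Lce1i, chr3:92778900-92778979 (-): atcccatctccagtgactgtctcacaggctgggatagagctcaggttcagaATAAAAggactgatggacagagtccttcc
Lce1l, chr3:92851287-92851366 (-): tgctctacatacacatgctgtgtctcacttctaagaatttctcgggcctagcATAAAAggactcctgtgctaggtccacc
Lce1m, chr3:93019062-93019141 (-): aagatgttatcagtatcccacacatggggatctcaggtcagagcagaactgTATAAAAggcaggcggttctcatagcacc
Lce1c, chr3:92679167-92679246 (+): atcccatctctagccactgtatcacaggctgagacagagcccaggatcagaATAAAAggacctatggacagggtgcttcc
Lce3b, chr3:92932899-92932978 (+): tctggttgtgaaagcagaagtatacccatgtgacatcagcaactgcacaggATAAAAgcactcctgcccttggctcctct
Lce3c, chr3:92944406-92944485 (+): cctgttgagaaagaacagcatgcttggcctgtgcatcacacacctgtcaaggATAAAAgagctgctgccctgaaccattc

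ATAAAA was present in 9 of 10 Lce1 windows, 4 of 4 Lce3 windows, 3 of 4 filaggrin-like windows, 4 of 7 Sprr windows, 1 of 2 envelope precursor windows (Lor) and 0 of 4 S100 windows, against 17.0% of all windows. It began 28 or 29 bases before the start in the Lce genes that held it except Lce3a, where it began 44 bases before it, and Lce3f held a further copy. In Lor, Sprr2h, Sprr1b and Hrnr it began 26, 28, 29 and 30 bases before the start, so it is not particular to the Lce genes. Lce1a1 was the Lce1 gene without it. The Lce1 windows had a median identity of 65.4% over 45 pairs. The 28 pairs without Lce1l and Lce1m ran from 61.4% to 85.6%, and the 17 pairs with either of these ran from 50.5% to 55.6%. The identity between Lce1 and Sprr windows had a median of 52.7%, and that between Lor and the Lce1 windows 53.2%. The median was 52.1% between Lce1 and Lce3 windows, 52.7% within Sprr and 50.2% within the filaggrin-like genes. Windows of unrelated genes were not aligned, so values near these cannot be read as similarity. The Lce3 windows had a median identity of 58.3% over 6 pairs.

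Values between arrays differed very little on the deposited scale, so deviations are given in millionths of a log2 unit from the gene's own mean over 8 arrays. The sources used here do not give the method behind this scale, and whether a difference on it equals a log2 fold change is unknown. Levels of different probe sets cannot be set against each other. Of the 35 genes, 31 lay at or above 8.193, the median over all probe sets. The others were Sprr2f, Sprr2i, Sprr3 and Lce3a, and no filter on low values was applied. The medians of the 8 arrays spanned 2.70e-04, which is more than the whole range over the arrays of 15 of the 35 genes, so a rescaling of the arrays can move such a gene's pattern.

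Lor had a mean of 14.07. Its deviations were 3.10, -5.06, 7.32 and -4.30 millionths in control arrays 1 to 4 and -4.22, 7.08, 2.25 and -6.17 millionths in collagen arrays 1 to 4. Lor was therefore high in control 1, control 3, collagen 2 and collagen 3 and low in the other 4 arrays, and the diets overlapped. Crct1, a cysteine-rich protein gene that lies beside the Lce genes, deviated by 26.8, -21.7, 16.4 and -7.67 millionths in the control arrays and by -12.0, 25.4, 8.41 and -35.6 millionths in the collagen arrays. It was high in the same 4 arrays as Lor. Ivl was not: it deviated by -142, 249, -353 and -586 millionths in the control arrays and by 143, 635, -131 and 185 millionths in the collagen arrays.

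Covariation was measured as the Pearson correlation (r) over the 8 arrays of the residuals from each diet's mean, and it describes how genes moved from array to array apart from diet. Each r shares the same 8 arrays, so values are descriptive. The permutation tests of gene pairs shuffled the 8 residuals freely across both diets. Residuals of a diet depend on each other through its mean, so those p-values are approximate and may be too small. For these pairs the word exact means only that every pairing was counted. The gene pairs tested were chosen with earlier results of these data known. Over all 595 pairs of the 35 genes the median r was 0.194, and 156 pairs had an r above 0.7. Over all pairs of measured genes the median was 0.0069, and 5.94% had an r above 0.7.

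**Figure D1:**
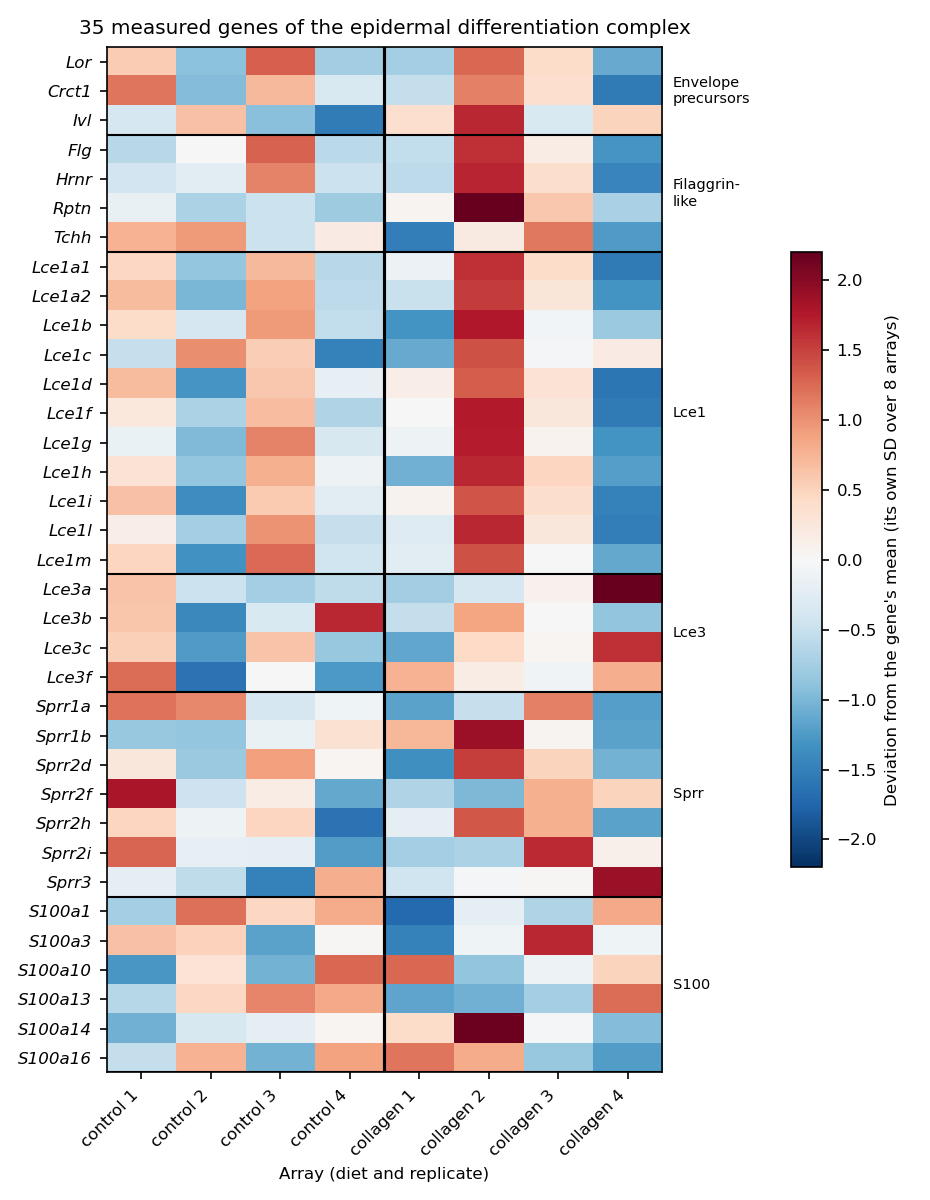
Deviation of each of the 35 measured genes from its own mean, in units of its own SD over the 8 arrays (red above, blue below), with control arrays left of the vertical line and collagen arrays right of it. Lor, Crct1, Flg, Hrnr and most Lce1 genes are red together in control 3 and collagen 2 and blue together in collagen 4.

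The Lce1 genes were the most uniform family. Their 55 pairs had a median r of 0.918, from 0.04 to 0.999, and 45 of them lay above 0.7. All 11 Lce1 genes were above their own mean in control 3 and in collagen 2, 9 of 11 in control 1 and in collagen 3, and at most 3 of 11 in each of the other 4 arrays. All 11 had their highest value in collagen 2, where 13.4% of all measured genes had theirs, and 8 of 11 had their lowest value in collagen 4, where 9.79% of all genes had theirs.

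Lce1a2 followed Lor most closely, at r = 0.968. Its deviations were 20.6, -29.9, 26.2 and -17.2 millionths in the control arrays and -14.4, 46.0, 7.89 and -39.1 millionths in the collagen arrays. Lce1l, measured at a lower level (mean 9.60), deviated by 295, -1570, 2094 and -1061 millionths in the control arrays and by -614, 3530, 542 and -3216 millionths in the collagen arrays. The sign of the deviation was the same for Lce1a2 and Lce1l in each of the 8 arrays. The exception in the family was Lce1c, whose r with Lor was 0.439, with deviations of -79.9, 163, 84.3 and -235 millionths in the control arrays and -174, 220, -7.03 and 28.9 millionths in the collagen arrays.

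Probes of near-identical genes can bind each other's transcripts, so the Lce1 probe sets are not independent measurements. Of the 11 Lce1 probe sets, 5 carried a suffix that marks probes shared between transcripts, and these had a median r of 0.932 over 10 pairs. The 6 genes with a probe set without such a suffix (Lce1a2, Lce1b, Lce1c, Lce1f, Lce1g and Lce1l) had a median r of 0.875 over 15 pairs, and 10 of these pairs lay above 0.7. The median r of Lor with these 6 was 0.903. The Lor probe set used itself carried such a suffix, as did those of Sprr2h, Lce3b, Lce3c and S100a1.

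With Lor itself, 16 of the other 34 genes had an r above 0.7, against 4.87% of all measured genes. They were 10 of 11 Lce1 genes, Crct1 (0.919), Sprr2d (0.905), Hrnr (0.869), Sprr2h (0.850), Flg (0.825) and Rptn (0.776). Among the 229 genes outside the list with a mean of at least 13, where Lor lies, 8.73% had an r with Lor above 0.7. The scaling of the arrays mattered for this result. After each array was centred on its median, the median r of Lor with the Lce1 genes was 0.36, and the median within Lce1 was 0.71. After quantile normalization Lor, Flg, Crct1 and several Lce1 genes had no spread, so no r with them could be computed.

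Lor was also measured by 2 other probe sets. The brighter of them (mean 13.23) had an r of 0.861 with the one used. The dim one (mean 7.94) had an r of -0.466 with it and did not show the pattern.

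**Figure D2:**
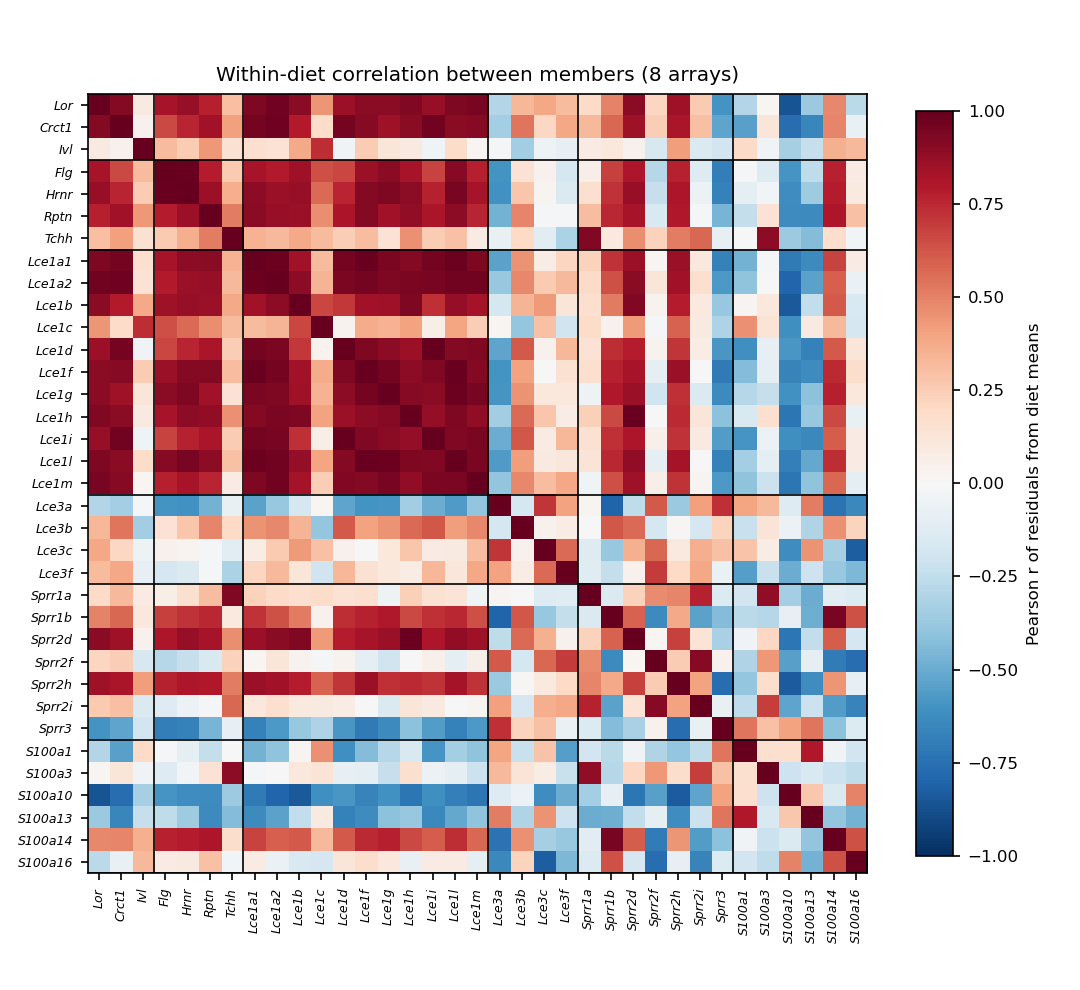
Within-diet Pearson r between the 35 measured genes over 8 arrays, ordered by family, with red for positive and blue for negative values. The block of Lor, Crct1, Flg, Hrnr and the Lce1 genes is red, while Lce3, Sprr and S100 genes form no common block.

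Among the filaggrin-like genes, Flg and Hrnr moved almost as 1 gene. Flg (mean 12.21) deviated by -154, -4.04, 326 and -148 millionths in the control arrays and by -138, 404, 38.8 and -325 millionths in the collagen arrays. Hrnr (mean 12.79) deviated by -167, -90.5, 438 and -194 millionths in the control arrays and by -232, 675, 155 and -584 millionths in the collagen arrays. Both were highest in collagen 2, next highest in control 3 and lowest in collagen 4. Their r was 0.985 (exact permutation test over 40320 pairings, two-sided p = 1.5e-04, adjusted p = 7.4e-04 over 5 gene pairs), and Spearman's rho was 0.905 (exact permutation p = 0.00456, adjusted p = 0.0228). Without control 3 and collagen 2, the arrays farthest from the median of Flg, r was 0.954. After quantile normalization Flg had no spread, so the pair had no r under that scaling.

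Lor and Flg were less tightly coupled. Their r was 0.825 (exact permutation p = 0.00826, adjusted p = 0.0138), and rho was 0.690 (exact permutation p = 0.0694, adjusted p = 0.116). Without control 3 and collagen 2, r was 0.419, so the relation rests on those arrays. The r was 0.212 after median centring, and the adjusted p was 0.0661, 0.112, 0.0640 or 0.0856 when control 3, collagen 2, collagen 3 or collagen 4 alone was left out (exact permutation tests). For Lor and Ivl, r was 0.093 (exact permutation p = 0.821, adjusted p = 0.821) and rho was 0.0238 (exact permutation p = 0.977, adjusted p = 0.977), and without the same 2 arrays r was -0.274. No relation between the early precursor Ivl and the late precursor Lor was detectable over these 8 arrays. With the Lce1 genes, Flg, Hrnr and Rptn had a median r of 0.848 over 33 pairs, while the 11 pairs of Tchh with them ran from 0.0817 to 0.458. Rptn (repetin, another granule repeat protein) was highest in collagen 2, with deviations of -1282, -5269, -3644 and -5952 millionths in the control arrays and 425, 16695, 4521 and -5493 millionths in the collagen arrays.

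The Lce3 genes, known to be induced in wounded and inflamed skin, did not follow the Lce1 genes. The 44 pairs of an Lce1 with an Lce3 gene had a median r of 0.120, and 0 of them lay above 0.7. The r of the 4 Lce3 genes with Lor ran from -0.294 (Lce3a) to 0.389 (Lce3c). Lce3a and Lce3c were highest in collagen 4, the array in which 8 of 11 Lce1 genes were lowest. The mean standardised values of the immune genes (1.19) and of the adipocyte genes (1.32) were also highest in collagen 4. The 10 immune genes had a median r of 0.651 with Lce3a and 0.458 with Lce3c, but 0.0478 with Lce3f and -0.443 with Lce3b. Among themselves the Lce3 genes had a median r of 0.236, from -0.172 to 0.711. The part of these cells in the patterns of Lce3a and Lce3c was not tested. Lce3c (mean 9.03) deviated by 3.11, -7.51, 3.79 and -5.06 millionths in the control arrays and by -6.82, 2.61, 0.225 and 9.66 millionths in the collagen arrays. Lce3a lay under the median level and Lce3f (mean 8.33) close to it, at percentiles 36.5 and 53.7 of all probe set means. Lce3c and Lce3b lay at percentiles 68.4 and 77.3.

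The 7 Sprr genes had a median r of 0.134 among themselves (-0.0592 without collagen 1) and fell into separate patterns. Sprr2d and Sprr2h moved with Lor and the Lce1 genes, and Sprr2d had an r of 0.989 with Lce1h. Sprr2d (mean 10.36) deviated by 702, -2260, 2508 and 98.2 millionths in the control arrays and by -3748, 4229, 1347 and -2877 millionths in the collagen arrays. The dim genes Sprr2f, Sprr2i and Sprr3 did not follow Lor, with an r of 0.213, 0.259 and -0.597. Sprr1b moved with S100a14 at r = 0.947, and both were highest in collagen 2. Fibroblast genes ran against the pair, with a median r of -0.736 with Sprr1b and -0.711 with S100a14, as did immune genes, at -0.665 and -0.643. The part of these cells in it was not tested. For Sprr1a and Sprr1b, which are closely related, r was -0.147 (exact permutation p = 0.727, adjusted p = 0.821) and rho was -0.0952 (exact permutation p = 0.840, adjusted p = 0.977), and r was 0.0965 without control 1 and collagen 3.

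The pattern of Sprr1a was that of Tchh and S100a3. Tchh (mean 11.37) deviated by 698, 845, -429 and 159 millionths in the control arrays and by -1381, 186, 1052 and -1131 millionths in the collagen arrays. S100a3, a calcium-binding protein of the hair cuticle, deviated by 5611, 4384, -10189 and 257 millionths in the control arrays and by -12852, -791, 14392 and -811 millionths in the collagen arrays. Both were highest in collagen 3 and lowest in collagen 1. Their r was 0.895 (exact permutation p = 0.00273, adjusted p = 0.00682) and rho was 0.857 (exact permutation p = 0.0107, adjusted p = 0.0268). Without collagen 1 and collagen 3, r was 0.709. The adjusted p was 0.0645 without collagen 3 alone (r = 0.783) and 0.0681 after quantile normalization (r = 0.665), both by exact permutation test.

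Sprr1a had an r of 0.929 with Tchh, and its deviations were 24.8, 21.8, -7.57 and -1.97 millionths in the control arrays and -24.5, -10.4, 23.0 and -25.1 millionths in the collagen arrays. Among all measured genes 2.25% had an r with Tchh above 0.7. Hair genes moved with these 3: of 18 hair shaft genes 15 had an r with Tchh above 0.7 (median 0.886), as did 8 of 10 inner root sheath genes (median 0.777). With Sprr1a the hair shaft genes had a median r of 0.867, and with S100a3 0.934. With Lor the hair shaft genes had a median r of 0.166, and 0 of 18 lay above 0.7. The mean of the standardised hair shaft genes ran from -0.697 to 0.634 over the control arrays and from -1.38 to 1.34 over the collagen arrays. The part of hair follicle content in the pattern of Tchh, S100a3 and Sprr1a was not tested.

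**Figure D3:**
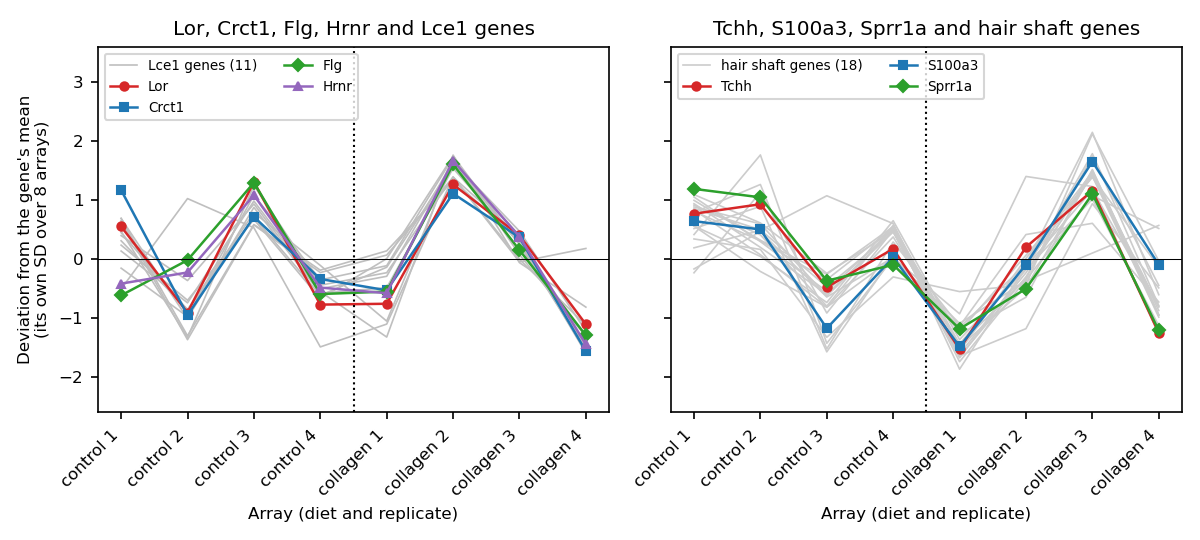
Deviation from the gene's own mean, in its SD over 8 arrays, with control arrays left of the dotted line. On the left Lor, Crct1, Flg and Hrnr run with the 11 Lce1 genes (grey), which all peak in collagen 2, and on the right Tchh, S100a3 and Sprr1a run with 18 hair shaft genes (grey), with Tchh and S100a3 highest in collagen 3 and lowest in collagen 1.

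The 6 S100 genes shared no pattern, with a median r of -0.148 over 15 pairs, of which 1 lay above 0.7, a share near the 5.94% of all pairs of genes. That pair was S100a1 and S100a13 (r = 0.804). The immune genes had a median r of 0.587 with S100a1 and of 0.789 with S100a13, and their part in the pair was not tested. S100a10, the light chain of the annexin A2 complex, had an r of -0.861 with Lor. Its 2 other probe sets had an r with Lor of -0.210 and -0.369, so the strength of this relation rests on 1 probe set. The probe set used deviated by -7.54, 1.77, -6.21 and 7.47 millionths in the control arrays and by 7.46, -5.18, -0.668 and 2.88 millionths in the collagen arrays. It was low in control 1, control 3, collagen 2 and collagen 3, the arrays in which Lor was high. S100a16 hardly moved on the deposited scale, with a range of 7.9e-07. The median r of the S100 genes changed sign when collagen 4 was left out, to 0.216.

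Along chromosome 3, most members of a family lay together, but Lor, Ivl and Crct1 were apart from each other, S100a10 was apart from the other S100 genes, and Crct1 lay between Lce1m and the other Lce genes. The 34 pairs of measured neighbours had a median r of 0.395, pairs 2 to 5 places apart 0.292, and pairs 21 or more places apart 0.0418. Distance and family cannot be told apart here, since most Lce genes lie together. Lor lies between S100a3 and the Sprr2 genes, far from the Lce1 genes whose values it followed, and Ivl lies directly beside Lce1a1 in the order of measured genes without following it.

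**Figure D4:**
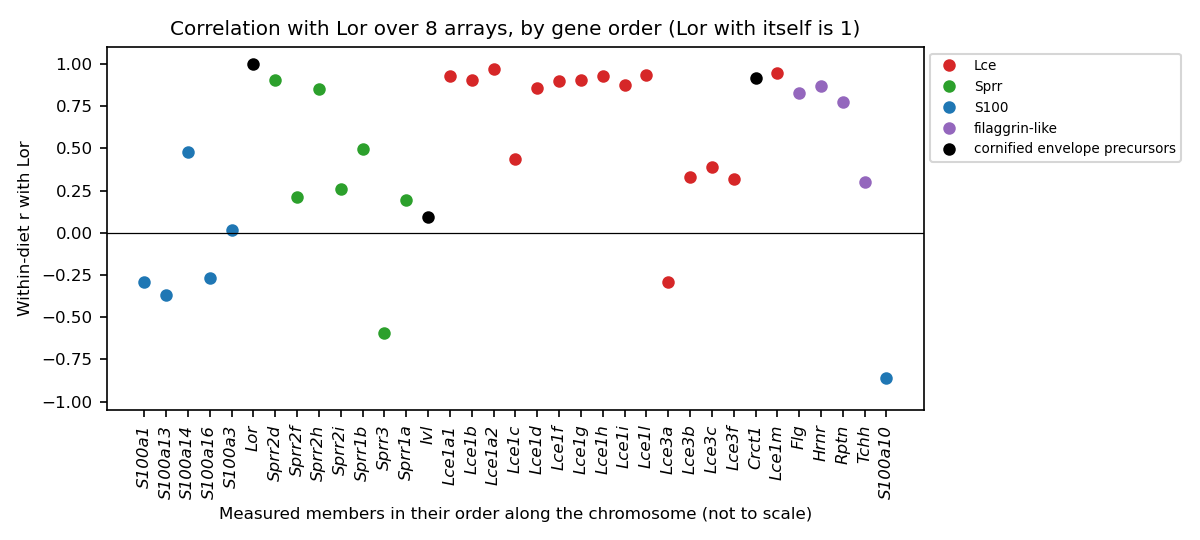
Within-diet r with Lor over 8 arrays (vertical axis) for the 35 measured genes in their order along the chromosome (horizontal axis, not to scale), coloured by family. The Lce1 genes lie between 0.439 and 0.968 and the Lce3 genes beside them between -0.294 and 0.389.

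Genes for building and processing the envelope were examined as a list of 21 genes, all measured. It holds transglutaminases, proteases, their inhibitors and the enzymes Padi1 and Padi3. It also holds Evpl, Ppl, Cdsn, Sbsn, Dmkn and Krtdap, which are not enzymes. Of the 21 genes, 20 had an r with Lor above 0 and 9 above 0.7, with a median of 0.678. Of 23 listed regulators of differentiation, 21 were measured, with a median r with Lor of 0.264, and 1 of 21 lay above 0.7 (the repressor Prdm1, at 0.802), a share near the 4.87% of all genes. Of 20 further genes of the complex, 11 were measured. Kprp, a keratinocyte proline-rich protein, had an r with Lor of 0.930, and Tchhl1, a relative of trichohyalin, had an r with Tchh of 0.966. Prdm1, Kprp and Tchhl1 were named after their values had been seen.

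Markers of other cell types stood beside the Lor pattern as follows. The 7 spinous keratinocyte genes had a median r with Lor of 0.617, and the 7 basal keratinocyte genes -0.325, with 2 of 7 above 0. Those of 10 immune genes had a median of -0.376, and 0 of 10 were above 0. Fibroblast genes had a median of -0.217, adipocyte genes -0.269 and skeletal muscle genes 0.00379. The difference between 3′ and 5′ probe sets of Gapdh, a sign of RNA integrity, had an r of -0.071 with Lor and of -0.237 with Tchh. The part of these cell types in the Lor pattern was not tested.

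The diet comparison asked whether 1 week of collagen hydrolysate changed these genes. With limma and Benjamini-Hochberg adjustment over 18193 genes, 0 of the 35 genes passed an adjusted p of 0.05, as did 0% of all genes (smallest adjusted p = 0.999). At an unadjusted p under 0.05 there were 0 of 35 members, against 3.49% of all genes. Diets did not overlap for 0 of 35, against 2.02% of all genes. The collagen mean was the higher in 21 of 35, against 52.9% of all genes, and in 13 of 35 when collagen 2 was left out. Arrays centred on their median gave 31 of 35, but centring adds the same 5.52e-05 to every difference, and 94.6% of all genes were then higher. The median difference was 0.0528 of a gene's within-diet SD, beside 0.0517 over all genes.

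Ivl had the smallest p of the members. Its collagen minus control difference was 4.16e-04 ± 2.29e-04 (SE, n = 4 arrays per diet), or 1.24 within-diet SD with a 95% interval from -0.396 to 2.87 SD (limma unadjusted p = 0.115, adjusted p = 0.999). The exact permutation test over 70 assignments, whose smallest possible p is 0.0286, gave p = 0.171 for Ivl. A second Ivl probe set, at r = 0.949 with the first, had a difference of 6.29e-04 (limma unadjusted p = 0.0528). Rptn had a difference of 0.00807 ± 0.00462 (SE), or 1.19 SD, with a limma unadjusted p of 0.128. Its other probe sets were dim, with means of 7.66 and 7.33 and an r of -0.588 and 0.540 with the one used. Their differences were -1.47e-07 and -8.83e-07 (limma unadjusted p = 0.899 and 0.145). Without collagen 2 the difference was 0.00385 for Rptn and 2.74e-04 for Ivl.

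The late envelope genes lay close to 0. For Lor the difference was -5.3e-07 ± 4.1e-06 (SE), or -0.088 SD with a 95% interval from -1.72 to 1.55 SD (limma unadjusted p = 0.901). The dim Lor probe set, which does not follow the one used, had a limma unadjusted p of 0.0392. Flg and Hrnr differed by -0.0363 and 0.0156 SD. The 11 Lce1 genes ran from -0.198 to 0.211 SD. Of these, 9 were higher with collagen, against 52.9% of all genes, but they move together and all 11 were highest in collagen 2. Without collagen 2 the differences of Lce1l, Lce1m and Lce1g, positive with all arrays, were -0.00104, -2.38e-04 and -9.69e-05. The interval for Lor shows how wide a range of differences 4 arrays per diet leave.

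Some members had larger differences in SD, none past the threshold. They were Sprr1a at -0.939 SD, S100a1 at -0.914 SD, S100a13 at -0.910 SD, Lce3f at 0.852 SD and S100a14 at 0.801 SD. Their unadjusted p from limma ran from 0.213 for Sprr1a to 0.281 for S100a14, and each adjusted p was 0.999. Tchh differed by -0.702 SD, Sprr1b by 0.749 SD and Sprr3 by 0.730 SD. Single arrays moved these values: without collagen 2 the difference of S100a14 went from 9.97e-06 to 2.50e-06 and that of Sprr1b from 0.00648 to 0.00209, and without collagen 1 that of Tchh went from -6.37e-04 to -2.82e-04. Without collagen 1 that of S100a1 went from -3.12e-04 to -1.60e-04, without control 2 that of Lce3f went from 6.12e-05 to 3.12e-05, and without collagen 4 that of Sprr3 went from 9.2e-07 to 2.7e-07. The spread over the arrays was the larger among collagen mice in 28 of 35 members, against 55.9% of all genes. This difference in spread was not tested, and the Lce1 genes, which move together, count as 11 of the 35.

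**Figure D5:**
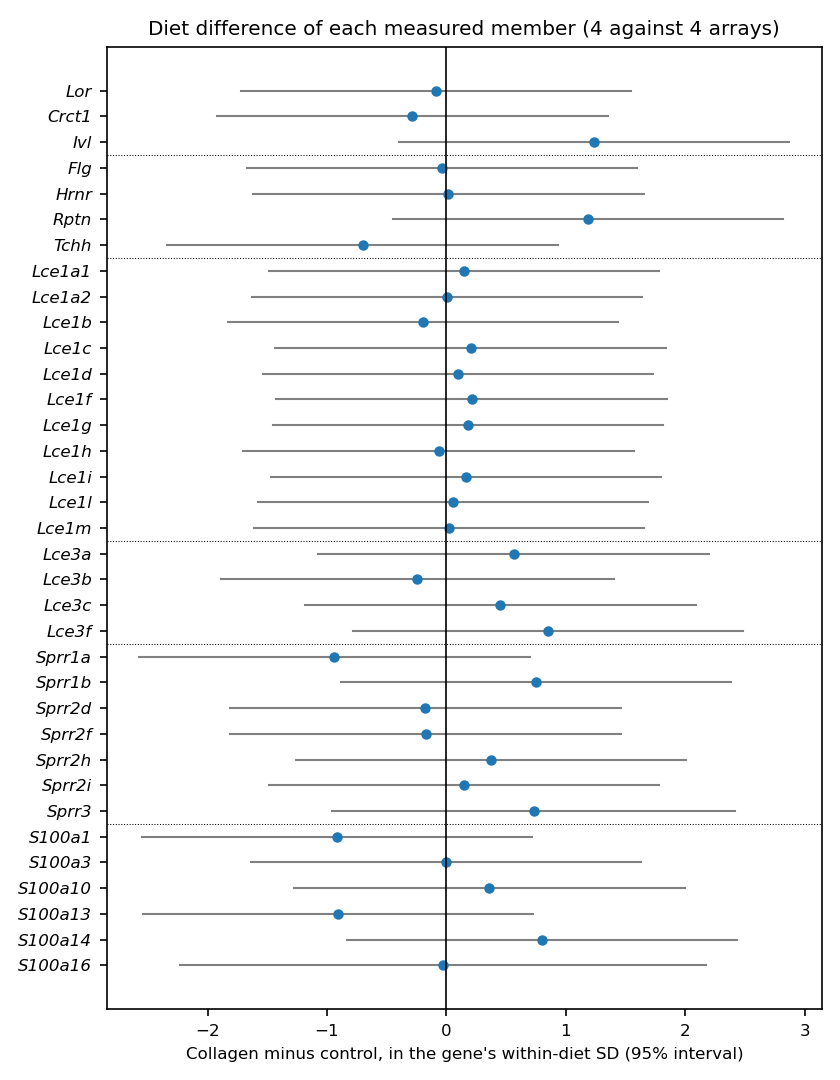
Collagen minus control difference of each measured gene (points) with its 95% interval from limma (bars), in units of the gene's within-diet SD, 4 against 4 arrays. Every interval crosses 0, and Ivl and Rptn have the largest positive differences, 1.24 and 1.19 SD.

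In the lists of envelope processing genes, of regulators and of further genes of the complex, 0 genes had a limma unadjusted p under 0.05, against 3.49% of all genes. Of all genes, 52.9% were higher with collagen. The envelope processing list had 13 genes higher and 8 lower with collagen, with Cdsn (corneodesmosin, which holds corneocytes together) lowest in p at -5.0e-04 ± 2.34e-04 (SE; limma unadjusted p = 0.0735). The regulators had 14 higher and 7 lower, with Trp63 (the p63 factor of basal keratinocytes) at 6.2e-05 ± 2.59e-05 (SE; limma unadjusted p = 0.0505). The further genes of the complex had 5 higher and 6 lower.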

How the data were processed

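The authors deposited log2 values in 1 table with a column per array, and R 2.7.2 is the tool named in the submitters' processing notes. That the scale is log2 follows from its span (6.56 to 14.46). The sources used here give no summary or normalization method, and signal over background is unknown. Probe sets took gene symbols from the platform annotation: 34945 of 45037 had 1, 932 several and 9160 none, and 64 control probe sets were left out. The 35 members and 18193 genes were tested in the values as deposited using the limma package, version 3.58.1, under R 4.3.3. The model held diet alone, differences are collagen minus control, and eBayes gave two-sided p-values with Benjamini-Hochberg adjustment at 0.05. Labels do not say that arrays came from separate mice beyond the word biological, so p-values measure the spread between these arrays, whose number limits the precision. Correlations, permutation tests and promoter alignments used Python 3.11.15, SciPy 1.17.1 and Biopython 1.88. Marker lists were summarised per array by averaging the standardised values of their genes. Only the limma step was tested on simulated data. Genes named were Lor, Ivl, Crct1 and the filaggrin-like genes, and the 4 smallest p and 3 widest ranges per Lce, Sprr and S100 family. The rule also chose the 3 smallest p in each pathway list. Of those, Cdsn and Trp63 are given, while Tgm5, Tgm3, Arnt, Cebpa, Prr9, Sprr2k and S100a5 are not. Other names were added after values were seen. The members, lists and gene pairs were chosen with earlier results of these data known. Alternatives were left-out arrays, quantile normalization, median centring, probe set averaging, a filter on dim probe sets, another variance model, a replicate block and exact permutation.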

Additional observations from a re-analysis of the deposited data

Results flagged for a closer look

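Over 25 named genes, the 4 arrays of each diet were examined for a single far value, 50 groups in all, and chance alone would give about 1 such group in 20. The value of 1 group was far from the others: Hrnr in control 3, at 12.7913, against 12.7906, 12.7907 and 12.7907 in the other control arrays. Its gap to the nearest array was 0.836 of the range, above Dixon's 95% critical value for 4 samples. Control 3 was also the highest control array for Lor, Flg and 8 of the 11 Lce1 genes.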

How the results depend on the processing

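Under each alternative 0 genes passed an adjusted p of 0.05 by limma. The members at an unadjusted p under 0.05 were 0 as deposited, 0 to 2 with an array left out, 1 of the 21 with any spread after quantile normalization (14 members had none), 1 after median centring and 2 with the replicate number as a block. The block gave 1110 genes at that threshold in place of 635. Same-numbered arrays correlated at 0.362, 0.0486, 0.215 and 0.0111, so the numbers were not taken as pairs, and for replicates 1 and 3 alone the own number matched best. The members higher with collagen were 13 to 28 with an array left out (13 without collagen 2, 28 without collagen 4), and 14 of 21 after quantile normalization. The median r over all pairs, 0.194, was 0.165 to 0.291 with an array left out and 0.0099 after quantile normalization, where 14 members gave no value. These 14 were Lor, Flg, Crct1, Sprr1a, Lce1a1, Lce1a2, Lce1b, Lce1c, Lce1f, Lce1h, Lce1i, S100a10, S100a14 and S100a16. No r with any of them could be computed under that setting, so it leaves out most of the Lor pattern.

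The r of Lor and Flg was 0.212 after median centring, 0.690 by Spearman, 0.677 without both collagen 2 and collagen 4 (a choice made after seeing the data), and 0.724 to 0.946 with an array left out. Its call was lost without control 3, collagen 2, collagen 3 or collagen 4. That of Flg and Hrnr was 0.969 to 0.989 with an array left out and had no value after quantile normalization, where Flg had no spread. That of Lor and Ivl was -0.382 to 0.516 with an array left out and -0.334 without both collagen arrays. That of Sprr1a and Sprr1b was 0.274 after median centring. That of Tchh and S100a3 was 0.665 after quantile normalization and 0.783 to 0.970 with an array left out, and lost its call without collagen 3. The cause was not tested.

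Of 366 alternative values of the 25 named differences, 0 passed an adjusted p of 0.05 (smallest 0.556). Of the 341 without median centring, 42 had the opposite sign. Median centring adds 5.52e-05 to every difference alike, so its 7 sign changes carry no information about single genes: they were Lor 5.46e-05, Crct1 4.82e-05, Flg 4.53e-05, Lce3b 5.45e-05, Sprr1a 3.67e-05, S100a13 4.31e-05 and S100a3 2.39e-05. After quantile normalization those of opposite sign were Lce1l -4.03e-04, Lce1g -3.40e-06, Sprr2f 6.01e-06 and S100a13 6.60e-05. With a gene's probe sets averaged, Lor was 1.07e-06. With an array left out, the ranges of those that changed sign were Lor -2.98e-06 to 1.82e-06, Crct1 -1.66e-05 to 3.80e-06, Flg -1.46e-04 to 9.72e-05, Hrnr -2.17e-04 to 2.02e-04, Lce3a -9.79e-07 to 1.57e-05, Lce3b -1.95e-06 to 6.27e-07, Lce1l -0.00104 to 0.00121, Lce1m -2.38e-04 to 2.38e-04, Lce1g -9.69e-05 to 1.84e-04, Sprr2h -2.63e-05 to 2.73e-04, Sprr2d -0.00202 to 6.37e-04, Sprr2f -2.36e-04 to 1.49e-04 and S100a3 -0.00483 to 0.00425.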
